A study of Mus musculus with 12 samples.

Results

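The suppressors of cytokine signalling (SOCS) family holds 8 genes, Cish and Socs1 to Socs7, and each was found by its exact symbol as 1 row among the 23847 rows of the expression tables. All 8 rows reached 1 FPKM (fragments per kilobase of transcript, relative to all mapped fragments) in at least 1 of the 12 samples and so belonged to the 11191 rows that were tested. The samples were mRNA libraries of wild-type mouse bone marrow-derived macrophages, cells grown for 6 days from the marrow of mice aged 8 to 12 weeks in medium conditioned by L929 cells, a fibroblast line that secretes M-CSF. Control macrophages received neither agent, the IL-4 group received 20 ng/ml of the cytokine IL-4 for 24 h, the LPS group received 100 ng/ml of the bacterial cell wall component LPS for 3 h, and the IL-4+LPS group received IL-4 for 24 h followed by LPS for 3 h, each at those doses. The LPS dose is that of the labels, and the study's methods text gives it in a molar unit, which could not be settled here. Every group held 3 samples. The comparisons asked how IL-4, an alternative polarization signal, changed gene expression on its own and changed the response to LPS, an inflammatory signal. Macrophages in culture were a model in which each agent was given at 1 dose and 1 time, so the IL-4 and LPS groups differed in exposure time as well as in agent.

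Cytokine receptors without kinase activity of their own bind JAK kinases, which phosphorylate the receptor and the STAT transcription factors that dock on it. STAT factors then drive transcription of some SOCS genes, and the SOCS proteins return to the receptor complex and damp it, so the family works as a feedback brake. Each member has an SH2 domain, which binds phosphotyrosine, and a SOCS box, which recruits elongins and a cullin ubiquitin ligase. SOCS1 and SOCS3 also carry a short region that inhibits JAK kinases directly. SOCS4 to SOCS7 are less tied to cytokine induction and have been linked mainly to growth factor and insulin receptor signalling. In macrophages, SOCS1 is known for restraining interferon and IL-4 signalling, SOCS3 for restraining signalling through the gp130 receptor chain, and CISH and SOCS2 as targets of STAT5.

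All 9 macrophage markers were at 1 FPKM or more in every group. Their summed level was 19600 to 20900 FPKM for control and 16900 to 18000 FPKM for LPS. The sum was lower with IL-4, at 7830 to 8030 FPKM without LPS and 6970 to 7330 FPKM with it. Lyz2 held most of each sum, with means of 16100 FPKM for control, 4870 for IL-4, 12900 for LPS and 4300 for the pair. Cd14, Csf1r, Emr1, Fcgr1 and Itgam also had lower means with IL-4, whether or not LPS followed. Mrc1 had higher means with IL-4, 256 against 181 FPKM without LPS and 141 against 104 FPKM with LPS. Means of Cd68 and Mertk were lower with IL-4 when LPS was absent and higher when it was given. Of the 6 neutrophil markers with a row, all reached 1 FPKM, and their sum ran from 231 to 439 FPKM in IL-4 and from 364 to 1150 FPKM in the other 3 groups. S100a8 and S100a9 held most of it, with means of 258 and 299 FPKM in control and 124 and 156 FPKM in IL-4. Ngp and Camp also had lower means in IL-4 than in control. Mpo averaged 5.46 FPKM in control and 5.22 FPKM in IL-4, and Elane 5.53 and 3.99 FPKM. The 5 dendritic cell markers summed to 298 to 366 FPKM in the 2 groups given IL-4 and to 21.9 to 43.6 FPKM in the 2 groups without it, almost wholly from Itgax, while Flt3 and Xcr1 reached at most 0.171 and 0.205 FPKM. Zbtb46 of the same list averaged 0.0802 FPKM in control, 0.369 after IL-4, 0.518 after LPS and 2.42 after the pair of agents. T cell markers summed to at most 11.7 FPKM, nearly all from Cd4, and Cd3d was at 0 in every control, IL-4 and IL-4+LPS sample. B cell, mast cell, erythroid and fibroblast lists summed to at most 4.36 FPKM. The part of these markers in the SOCS results was not tested. In bulk samples, fewer cells of a type and less RNA per cell cannot be told apart. The relative sequencing depth read from the smallest value steps ran from 0.99 to 3.3 with control replicate 1 set to 1, and replicate 1 of IL-4, LPS and IL-4+LPS lay between 0.99 and 1.03. Replicate 1 was the lowest sample in both LPS groups for 25.3% of the tested rows and for 66.5% of the 203 rows at least 8-fold higher in LPS than in control, and whether depth had a part in this was not tested.

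**Figure D1:**
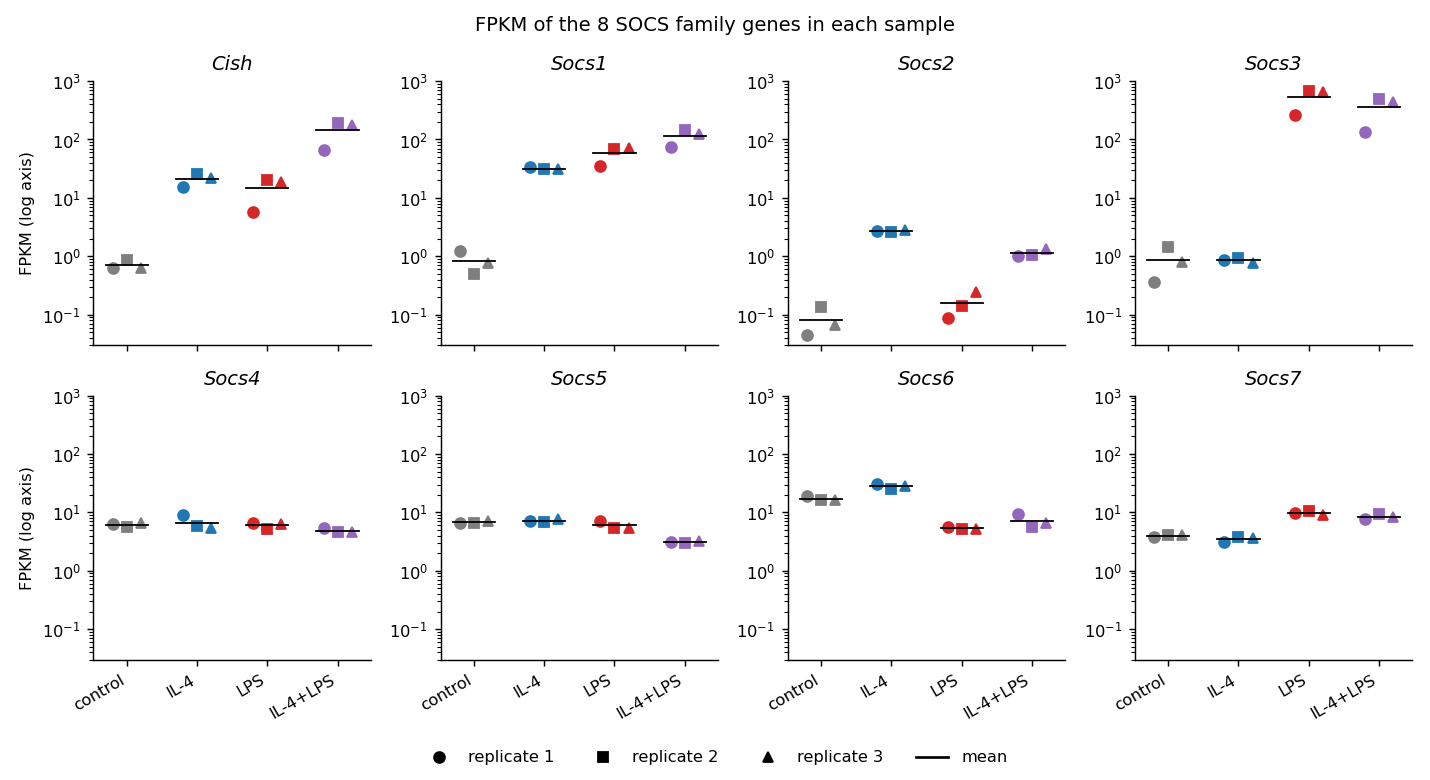
FPKM of each SOCS gene (vertical axis, log scale) in the 4 groups (horizontal axis), with 1 symbol per replicate and a line at the mean of 3 samples. Socs3 rose from below 1.5 FPKM to between 135 and 666 FPKM in both LPS groups, Cish and Socs1 stood highest in IL-4+LPS, and Socs4, Socs5 and Socs7 stayed between 2.99 and 10.4 FPKM throughout.

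Expressed per transcript length, the whole family summed to 36.7 ± 1.04 FPKM in control (SD, n = 3), 101.3 ± 0.111 FPKM after IL-4, 624 ± 255 FPKM after LPS and 644 ± 298 FPKM in IL-4+LPS. The make-up of that sum was different in each group. In control macrophages Socs6 held 46.9% of it, Socs5 18.6% and Socs4 16.8%, while Socs1, Socs2, Socs3 and Cish were each at or below 2.39%. After IL-4, Socs1 held 31.1%, Socs6 27.7% and Cish 20.4%. After LPS, Socs3 alone held 82.8% and Socs1 9.65%. In IL-4+LPS the sum was spread over Socs3 with 53.3%, Cish with 22.6% and Socs1 with 19.2%. The totals of LPS and IL-4+LPS overlapped, with samples at 329, 782 and 761 FPKM under LPS alone and 304, 857 and 771 FPKM under IL-4+LPS, and replicate 1 was the low sample in each.

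**Figure D2:**
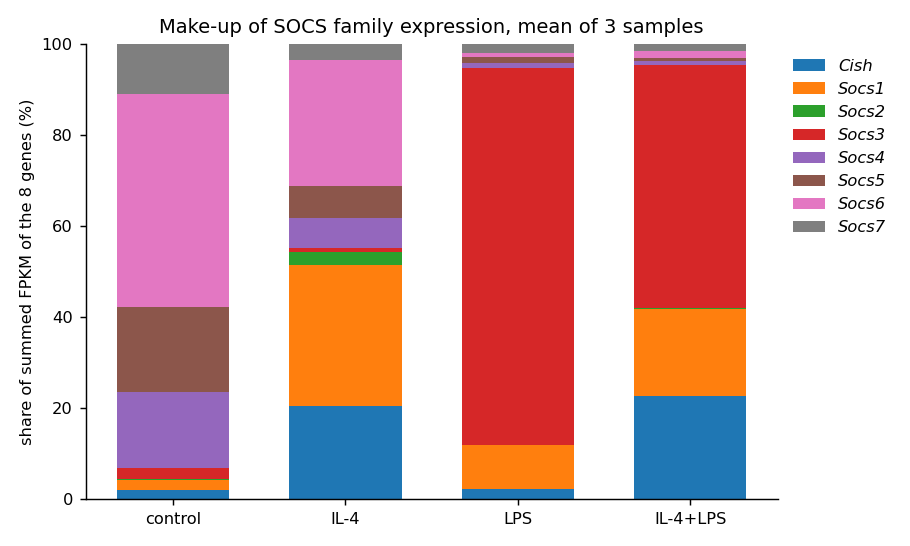
Stacked bars give the share of the summed FPKM of the 8 SOCS genes held by each gene (vertical axis, percent, mean of 3 samples) in each group. Socs6 leads in control with 46.9%, Socs1 in IL-4 with 31.1%, and Socs3 in LPS with 82.8% and in IL-4+LPS with 53.3%.

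Socs3 (ENSMUSG00000053113, chr11:117966087-117969366 in mm10, minus strand, 2 exons) encodes the inhibitor of gp130 receptors and other receptors that activate STAT3. Its level was 0.363, 1.43 and 0.810 FPKM in control and 0.863, 0.928 and 0.758 FPKM in IL-4. After LPS it was 259, 666 and 645 FPKM, and in IL-4+LPS 135, 497 and 443 FPKM. Every LPS-exposed sample therefore stood far above every sample without LPS, and among the tested rows the mean LPS level of Socs3 ranked 119th of 11191. On the log2(FPKM + 1) scale, on which all differences below are given, Socs3 rose by 8.05 ± 0.490 (SE) with LPS in untreated cells (limma, adjusted p = 1.90e-07) and by 7.39 ± 0.490 with LPS after IL-4 (adjusted p = 4.05e-07). IL-4 alone gave a difference of 0.03 with a 95% interval of -1.06 to 1.11 (adjusted p = 0.98). IL-4+LPS stood 0.63 below LPS with an interval of -1.72 to 0.45, which did not pass the threshold (adjusted p = 0.372), and the 2 groups overlapped. Replicate 1 was at 0.395 of the mean of replicates 2 and 3 in LPS and at 0.288 in IL-4+LPS. Without replicate 1 of every group the same difference was -0.48 and passed the threshold (adjusted p = 0.0289). Single samples moved it more, to -0.04 without IL-4+LPS replicate 1 (adjusted p = 0.957) and to -1.08 without LPS replicate 1 (adjusted p = 0.129). It was -0.40 and -0.42 without LPS replicate 2 or 3, and -0.97 without IL-4+LPS replicate 2. The order of the group means was IL-4, control, IL-4+LPS and LPS, and neither the lower nor the upper pair of neighbours differed beyond its spread in all 12 samples.

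Promoter windows of 300 bases, from 250 bases before to 50 bases after the annotated start, were at hand from RefSeq (GRCm38.p6) for 4 of the 8 genes, Cish, Socs1, Socs3 and Socs4. Both strands of each were searched for TTCNNNGAA and TTCNNNNGAA, the palindromes bound by STAT factors, for GGGNNTTTCC, a form of the NF-kappaB motif, and for GAAANNGAAA, a form of the interferon response element. In all 32544 distinct windows of that length these letters occurred in 8.33%, 6.98%, 1.61% and 3.45%. Only windows that held a match are shown. The Socs3 window held 1 match, TTCTTAGAA at chr11:117969512-117969520. The 165 bases printed end before an exon of an alternative transcript, run 5′ to 3′ on the minus strand of chr11:117969452-117969616, and have the match in capitals.
Socs3: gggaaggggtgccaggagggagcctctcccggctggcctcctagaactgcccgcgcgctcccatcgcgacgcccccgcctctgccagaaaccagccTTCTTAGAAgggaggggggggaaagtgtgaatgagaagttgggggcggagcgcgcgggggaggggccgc
A match is a description of letters and not a measured binding site. The Socs4 window held 0 matches to the 4 motifs and is therefore not shown.

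Socs1 (ENSMUSG00000038037, chr16:10783809-10785536, minus strand, 2 exons with the coding sequence in 1) encodes the family's direct JAK inhibitor in interferon and IL-4 signalling. Its level was 1.23, 0.490 and 0.769 FPKM in control, 33.3, 30.6 and 30.7 FPKM in IL-4, 35.7, 68.5 and 71.2 FPKM in LPS, and 74.6, 144 and 124 FPKM in IL-4+LPS. The 4 groups did not overlap at any step of that order. Socs1 rose by 4.17 ± 0.289 with IL-4 (adjusted p = 2.55e-06) and by 4.98 ± 0.289 with LPS (adjusted p = 1.36e-07), which on mean FPKM were ratios of 38.0 and 70.5. LPS after IL-4 raised it by a further 1.77 ± 0.289 (adjusted p = 2.59e-04). Both upper steps depended on single samples. IL-4+LPS stood 0.97 ± 0.289 above LPS (adjusted p = 0.0278), a ratio of 1.95 on mean FPKM. Without LPS replicate 1 the difference was 0.65 (adjusted p = 0.085), without IL-4+LPS replicate 2 it was 0.77 (adjusted p = 0.105), and without IL-4+LPS replicate 3 it was 0.88 (adjusted p = 0.09). LPS stood 0.81 above IL-4 (adjusted p = 0.0262), and that call was lost without IL-4 replicate 2 (0.79, adjusted p = 0.063), IL-4 replicate 3 (0.79, adjusted p = 0.0636), LPS replicate 2 (0.66, adjusted p = 0.094) or LPS replicate 3 (0.64, adjusted p = 0.1), and by Tukey's test (adjusted p = 0.137). Without replicate 1 of every group both steps passed with smaller p-values, at 0.93 for IL-4+LPS against LPS (adjusted p = 4.94e-04) and 1.16 for LPS against IL-4 (adjusted p = 4.46e-05). Replicate 1 was at 0.511 of the mean of the others in LPS and at 0.557 in IL-4+LPS, and at 1.09 in IL-4.

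The 250 bases before the start of Socs1 (GRCm38.p6, chr16:10785537-10785786, minus strand, no annotated exon of the gene) are shown because the window held matches. They held 2 overlapping matches to GAAANNGAAA, GAAAGAGAAA at chr16:10785610-10785619 and GAAACCGAAA at chr16:10785604-10785613, which are the run in capitals.
Socs1: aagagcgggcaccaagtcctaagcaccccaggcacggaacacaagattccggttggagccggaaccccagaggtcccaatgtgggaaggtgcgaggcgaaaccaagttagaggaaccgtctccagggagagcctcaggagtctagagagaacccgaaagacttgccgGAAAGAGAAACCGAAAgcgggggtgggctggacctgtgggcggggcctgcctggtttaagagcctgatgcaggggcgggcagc
Neither STAT palindrome was in the Socs1 window.

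Cish (ENSMUSG00000032578, chr9:107296689-107301961, plus strand, 3 exons) encodes the founding member of the family, an inhibitor of receptors that activate STAT5. Its level was 0.637, 0.859 and 0.631 FPKM in control, 15.1, 25.2 and 21.8 FPKM in IL-4, 5.80, 20.4 and 18.7 FPKM in LPS, and 67.1, 193 and 179 FPKM in IL-4+LPS. Every IL-4+LPS sample exceeded every sample of the other groups, while the IL-4 and LPS samples overlapped. Cish rose by 3.64 ± 0.471 with IL-4 (adjusted p = 2.04e-04) and by 3.06 ± 0.471 with LPS (adjusted p = 1.51e-04). It rose by 2.65 ± 0.471 with LPS after IL-4 (adjusted p = 4.70e-04), and IL-4+LPS stood 3.23 ± 0.471 above LPS (adjusted p = 4.88e-04), a ratio of 9.78 on mean FPKM. The mean in IL-4+LPS was 207 times that in control, against 29.2 times for IL-4 and 21.1 times for LPS. LPS and IL-4 differed by -0.58 with an interval of -1.62 to 0.46 (adjusted p = 0.245), and by -0.25 without replicate 1 of every group (adjusted p = 0.0493). Replicate 1 was at 0.297 of the mean of the others in LPS, at 0.361 in IL-4+LPS and at 0.64 in IL-4. On the opposite strand the annotation places the antisense gene Gm17041, which shares 1459 bases with the Cish locus, and the pseudogene Gm17040, which shares 504 bases. The library kit did not mark strand, so reads of these genes and of Cish cannot be told apart.

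The Cish window held 2 matches to TTCNNNGAA, TTCCTGGAA at chr9:107296659-107296667 and TTCTTGGAA at chr9:107296670-107296678, the former opening at the RefSeq start. The 30 bases around the pair are shown (chr9:107296654-107296683, plus strand, matches in capitals), and no more, since all 300 bases of the window lie in the first exon of a longer annotated transcript.
Cish: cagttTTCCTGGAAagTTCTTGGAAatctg

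Socs2 (ENSMUSG00000020027, chr10:95411490-95416857, minus strand) encodes the member best known for restraining growth hormone signalling. It was the lowest of the family in control, at 0.0444, 0.133 and 0.0674 FPKM, and in LPS, at 0.0862, 0.142 and 0.248 FPKM. IL-4 samples were at 2.76, 2.65 and 2.87 FPKM, and IL-4+LPS samples at 1.03, 1.05 and 1.33 FPKM. Each group given IL-4 lay wholly above each group without it. Socs2 rose by 1.80 ± 0.088 with IL-4 (adjusted p = 2.76e-07), and IL-4+LPS stood 0.88 ± 0.088 above LPS (adjusted p = 3.50e-05). LPS alone gave a difference of 0.10 with an interval of -0.10 to 0.29 (adjusted p = 0.33), whereas after IL-4 Socs2 fell by 0.82 ± 0.088 with LPS (adjusted p = 1.31e-05). All Socs2 levels were close to the pseudocount of 1, so these log2 differences understate the ratios. With a pseudocount of 0.1 in place of 1 the difference was 4.01 for IL-4 against control and 2.30 for IL-4+LPS against LPS. Under quantile normalization the fall with LPS after IL-4 was smaller, at -0.31 (adjusted p = 0.0475). On mean FPKM the IL-4 to control ratio was 33.8, and the IL-4+LPS mean was 0.412 of the IL-4 mean. Of the 50-base words of its longest transcript, 7.23% also occurred in transcripts of other genes, the pseudogene models Gm9847 and Gm8000 first among them.

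Socs6 (ENSMUSG00000056153, chr18:88867880-88894207, minus strand), whose product has been linked to insulin receptor and receptor tyrosine kinase signalling, was the most abundant member in resting cells. Its level was 18.8, 16.6 and 16.3 FPKM in control, 30.2, 25.4 and 28.7 FPKM in IL-4, 5.60, 5.12 and 5.20 FPKM in LPS, and 9.21, 5.59 and 6.62 FPKM in IL-4+LPS. The 2 agents moved it in opposite directions. It rose by 0.67 ± 0.140 with IL-4 (adjusted p = 0.00388) and fell by 1.53 ± 0.140 with LPS (adjusted p = 3.33e-06). After IL-4 it fell by 1.86 ± 0.140 with LPS (adjusted p = 1.01e-06). IL-4+LPS stood 0.34 above LPS, which did not pass the threshold (interval 0.03 to 0.66, adjusted p = 0.0897), and the samples of these groups overlapped at 5.59 and 5.60 FPKM. Without IL-4+LPS replicate 2 that difference was 0.48 (adjusted p = 0.0235). Of the 50-base words of its longest transcript, 11.74% also occurred in other genes.

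Socs7 (ENSMUSG00000038485, chr11:97362551-97398542, plus strand, 10 exons), which has also been linked to insulin signalling, rose with LPS whether or not IL-4 came before it. Its level was 3.75, 4.03 and 4.07 FPKM in control, 3.10, 3.74 and 3.58 FPKM in IL-4, 9.78, 10.4 and 9.20 FPKM in LPS, and 7.84, 9.24 and 8.44 FPKM in IL-4+LPS. Samples with LPS lay above all samples without it. The rise was 1.13 ± 0.084 in untreated cells (adjusted p = 7.91e-07) and 1.09 ± 0.084 after IL-4 (adjusted p = 1.20e-06). IL-4 gave a difference of -0.15 (interval -0.34 to 0.04, adjusted p = 0.196) before LPS, and IL-4+LPS differed from LPS by -0.19 (interval -0.37 to 0.00, adjusted p = 0.124).

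Socs5 (ENSMUSG00000037104, chr17:87107679-87137588, plus strand), linked to EGF receptor and IL-4 receptor signalling, had its lowest level after the pair of agents. Its level was 6.62, 6.65 and 7.23 FPKM in control, 7.12, 6.84 and 7.63 FPKM in IL-4, and 7.26, 5.31 and 5.49 FPKM in LPS. In IL-4+LPS it was 3.12, 2.99 and 3.21 FPKM, below all of the other 9 samples. It fell by 1.00 ± 0.101 with LPS after IL-4 (adjusted p = 8.18e-06), and IL-4+LPS stood below LPS, with a difference of -0.76 ± 0.101 (adjusted p = 2.44e-04). LPS alone gave -0.17 (interval -0.39 to 0.06, adjusted p = 0.151), which became -0.29 without LPS replicate 1 (adjusted p = 0.00581). LPS differed from IL-4 by -0.23 (adjusted p = 0.0557), and by -0.36 without LPS replicate 1 (adjusted p = 0.00182). IL-4 alone gave 0.07 (interval -0.16 to 0.29, adjusted p = 0.653). Under quantile normalization IL-4+LPS differed from IL-4 by -0.53 (adjusted p = 7.00e-04) and from control by -0.37 (adjusted p = 0.0052), against -0.93 from control as deposited.

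Socs4 (ENSMUSG00000048379, chr14:47277143-47291591, plus strand), the closest relative of Socs5, did not pass the threshold in any comparison in the fit of all 12 samples. Its level was 6.39, 5.65 and 6.50 FPKM in control, 8.93, 5.85 and 5.34 FPKM in IL-4, 6.49, 5.23 and 6.22 FPKM in LPS, and 5.51, 4.54 and 4.65 FPKM in IL-4+LPS. The difference of LPS from control was -0.04 (interval -0.39 to 0.30, adjusted p = 0.813). LPS after IL-4 gave -0.36 (interval -0.70 to -0.02, adjusted p = 0.0559), which passed without IL-4 replicate 3 (-0.49, adjusted p = 0.0213) and without IL-4+LPS replicate 1 (-0.43, adjusted p = 0.0448). IL-4+LPS differed from control by -0.29 (adjusted p = 0.117), and this difference, the same in size, passed when IL-4 replicate 1 was left out of the shared estimate of spread (adjusted p = 0.0247).

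Counted by comparison, LPS raised 4 of the 8 genes in untreated cells, Socs1, Socs3, Socs7 and Cish, and lowered 1, Socs6, where 16.9% of all tested rows rose and 57.7% fell. IL-4 raised 4, Socs1, Socs2, Socs6 and Cish, and lowered 0, against 16% and 21% of all rows. With LPS after IL-4 the same 4 genes as in untreated cells rose, against 15% of all rows, while Socs2, Socs5 and Socs6 fell, against 57.9%. In IL-4+LPS compared with LPS, Socs1, Socs2 and Cish were higher and Socs5 was lower, against 15% and 15.8%. In IL-4+LPS compared with control 5 genes were higher and 2 were lower, against 17.9% and 56.4%. In LPS compared with IL-4 Socs1, Socs3 and Socs7 were higher and Socs2 and Socs6 lower, against 18.5% and 55.2%. These comparisons share groups and are not independent. Socs2 reached 1 FPKM only in the groups given IL-4, and Cish in every group but control. Both passed the filter through the groups where they were high. Their rises there were therefore partly built in, a fall from their low groups could hardly be called, and the counts carry this limit. FPKM is relative to the other RNA of a sample, and the median tested row differed by -0.44 between LPS and control. Scaling each sample to a common median removed a log2 shift of -0.33 in that comparison, of -0.34 to -0.30 in the 4 comparisons that set LPS against no LPS, and of -0.02 to 0.01 in the others. Each call listed here held under that scaling, with Socs6 at -1.20 in LPS compared with control and Socs5 at -0.61 in IL-4+LPS compared with control. The differences of Socs4 and Socs5 between LPS and control, which had not passed, turned to 0.27 and 0.15.

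**Figure D3:**
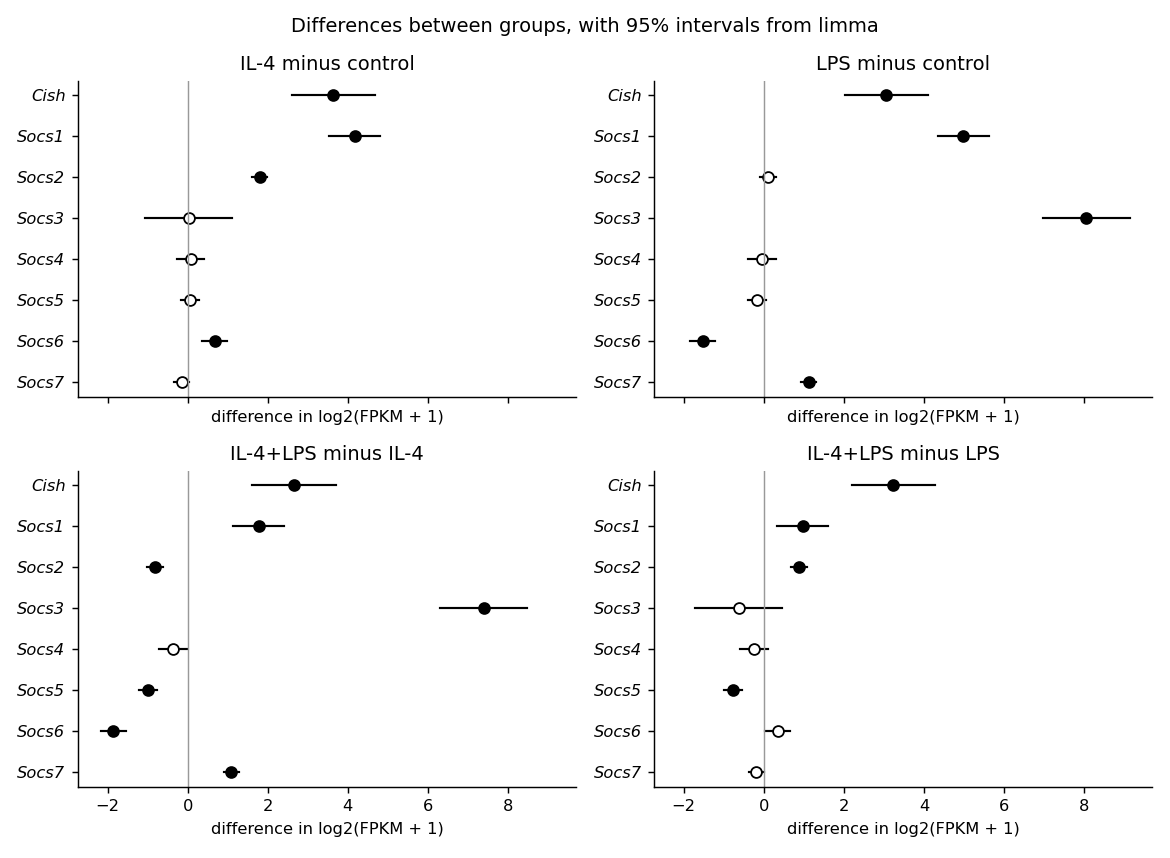
Differences in log2(FPKM + 1) for each SOCS gene (horizontal axis) in 4 comparisons, with 95% intervals from limma, where filled points passed an adjusted p of 0.05. Socs3 has the largest LPS differences, 8.05 and 7.39, while Socs1 and Cish are filled and to the right of 0 in all 4 panels.

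The LPS response was compared between cells with and without IL-4 by the interaction term, which is the LPS difference after IL-4 minus the LPS difference without it. It passed for 3 of the 8 genes and was negative for each, where 4.58% of all tested rows were higher and 4.63% lower. For Socs1 it was -3.21 ± 0.409 (adjusted p = 0.00102), since LPS added 4.98 without IL-4 and 1.77 with it. For Socs2 it was -0.92 ± 0.124 (adjusted p = 0.00141), and for Socs5 -0.83 ± 0.142 (adjusted p = 0.00484). Under quantile normalization the Socs2 value was -0.46 and did not pass (adjusted p = 0.119). Cish had -0.41 with a wide interval of -1.88 to 1.07 (adjusted p = 0.771), and Socs3 -0.66 (interval -2.19 to 0.88, adjusted p = 0.63). The size of the Cish value depended on the pseudocount of 1, which exceeded every control level of Cish. With a pseudocount of 0.1 it was -1.33 and did not pass (adjusted p = 0.314). Without replicate 1 of every group the Cish value was -0.63 (adjusted p = 0.0204) and the Socs6 value -0.48 (adjusted p = 0.0351), and without IL-4+LPS replicate 1 alone the Socs6 value was -0.50 (adjusted p = 0.0441). Single samples moved the Cish value from -0.94 without LPS replicate 1 (adjusted p = 0.303) to 0.08, with its sign changed, without IL-4+LPS replicate 1 (adjusted p = 0.95). The Socs3 value moved from -1.10 to -0.06 when the same samples were left out.

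The linear scale gave another picture for Cish and, in the means only, for Socs1, and no test was made on it. Added to the control level, the FPKM gains of IL-4 alone and LPS alone predicted 35.0 ± 5.50 FPKM (SE) of Cish in IL-4+LPS, and 146 ± 39.9 FPKM were measured, a ratio of 4.19. For Socs1 the sum was 89.2 ± 11.5 FPKM and the measured mean 114 ± 20.6 FPKM, a ratio of 1.28 with overlapping error ranges. The measured level was below the sum for the other 6 genes. For Socs3 it was 358 ± 113 FPKM against a sum of 523 ± 132 FPKM, a ratio of 0.685 and a gap within these errors. The ratio was 0.912 for Socs7 (8.51 ± 0.403 against 9.32 ± 0.419 FPKM) and 0.753 for Socs4 (4.90 ± 0.305 against 6.50 ± 1.21 FPKM). These errors do not set the 2 values of either gene clearly apart. The ratio was 0.487 for Socs5, 0.442 for Socs6 and 0.401 for Socs2. Socs1 thus had a smaller log2 response to LPS after IL-4, from a higher starting level. Its mean gain in FPKM was larger, 82.7 against 57.7 FPKM, a difference that was not tested.

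Ratios of 2 genes within a sample do not depend on the scaling of that sample. Socs3 exceeded Socs1 by 7.25, 9.72 and 9.05 times in the LPS samples and by 1.81, 3.46 and 3.56 times in the IL-4+LPS samples, whereas in IL-4 Socs1 exceeded Socs3 by 38.6, 33.0 and 40.5 times. The Cish to Socs3 ratio was 0.0224, 0.0307 and 0.029 in LPS and 0.497, 0.388 and 0.405 in IL-4+LPS, a 15.8-fold difference of the geometric means. The groups did not overlap for either ratio. In each case the two-sided exact permutation test gave p = 0.1, the smallest that 3 against 3 samples allow. Replicate 1, which was low for the single genes in both LPS groups, lay close to the others for the Cish to Socs3 ratio. Cish was below Socs1 in every LPS sample, with ratios of 0.163, 0.298 and 0.262, and near it in IL-4+LPS, with ratios of 0.9, 1.34 and 1.44.

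**Figure D4:**
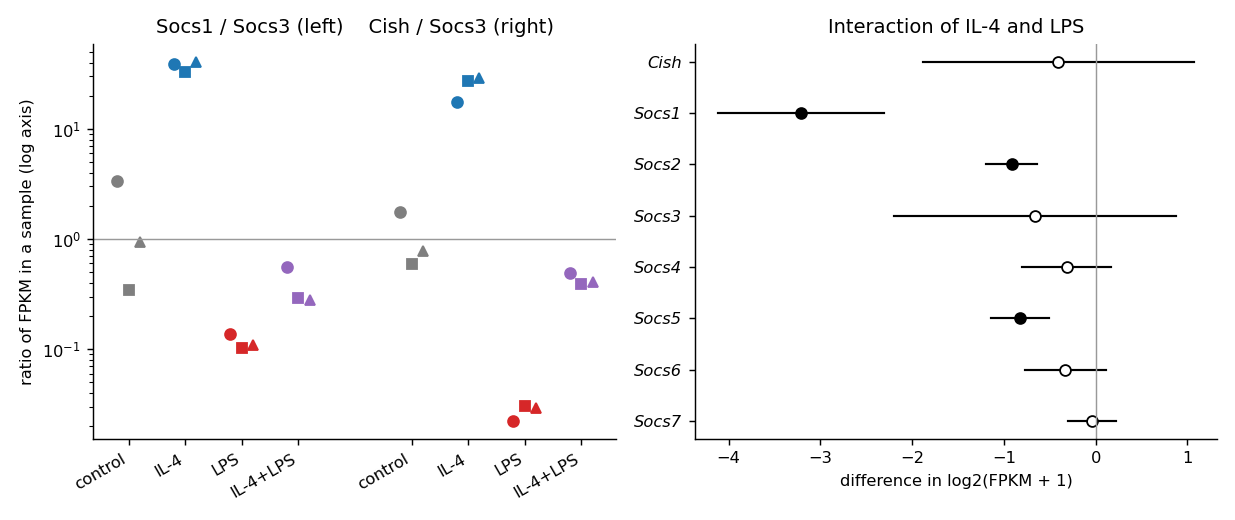
Left, ratio of FPKM within each sample (log axis) for Socs1 to Socs3 and Cish to Socs3 by group, with circles, squares and triangles for replicates 1, 2 and 3. Right, the interaction in log2(FPKM + 1) with 95% intervals and filled points for an adjusted p under 0.05. Both ratios are above 17 in IL-4, below 0.14 in LPS and between 0.28 and 0.56 in IL-4+LPS, and the interaction is lowest for Socs1 at -3.21.

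The kinases and factors that SOCS proteins act on changed as well. With LPS, 3 of the 4 JAK kinases rose and 0 fell, where 16.9% of all tested rows rose and 57.7% fell, with a list median of 0.53 against -0.44 for all tested rows. Jak2, the kinase bound by many receptors that SOCS1 and SOCS3 inhibit, was at 8.95 ± 0.584 FPKM in control, 22.0 ± 2.07 after IL-4, 164 ± 25.1 after LPS and 166 ± 25.2 after the pair of agents (SD, n = 3), a rise of 4.05 with LPS (adjusted p = 4.16e-09) and 1.21 with IL-4 (adjusted p = 7.72e-05). Jak3, the kinase of the common gamma chain, fell by 0.67 with IL-4 (adjusted p = 0.0095) and differed by -0.92 between the LPS groups (adjusted p = 0.00187). Of the 6 STAT genes tested, 4 rose with LPS and 1 fell, against 16.9% and 57.7% of all rows. Stat5a, whose product is known to act on Cish, went from 9.84 ± 1.39 FPKM in control and 11.4 ± 1.05 in IL-4 to 76.0 ± 29.6 under LPS alone and 111 ± 38.4 under IL-4+LPS, a rise of 2.75 with LPS (adjusted p = 2.11e-05). Its differences of 0.56 between the LPS groups (adjusted p = 0.225) and 0.19 between IL-4 and control (adjusted p = 0.682) did not pass. Stat6, the main IL-4 factor, fell by 0.88 with LPS (adjusted p = 2.66e-06) and was 0.50 higher with IL-4+LPS than with LPS alone (adjusted p = 7.60e-04). Stat3 was the gene of this list that was lower with IL-4+LPS than with LPS alone, by -0.87 (adjusted p = 0.00565).

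Elongins, cullins and their helpers form the ligase that the SOCS box recruits. Of the 7 genes of this list, 3 rose and 2 fell with LPS, against 16.9% and 57.7% of all rows. With IL-4 0 passed, against 16% and 21%, and 1 was lower with IL-4+LPS than with LPS alone, against 15.8%. Ube2f, a conjugating enzyme that helps activate cullin 5, went from 27.2 ± 0.875 FPKM in control to 89.4 ± 3.77 under LPS alone and 70.4 ± 5.91 under IL-4+LPS (SD, n = 3), a rise of 1.68 with LPS (adjusted p = 2.26e-08) and a difference of -0.34 between the LPS groups (adjusted p = 0.00563). Rnf7, the RING subunit used with cullin 5, fell by 0.45 with LPS (adjusted p = 6.83e-04). Of 15 other SOCS box genes tested, 10 fell and 2 rose with LPS, against 57.7% and 16.9% of all rows. The list median of -0.38 was near that of all rows. Spsb1 rose by 2.15 (adjusted p = 4.45e-04) and Spsb2 fell by 2.30, from 38.7 ± 2.88 to 7.06 ± 0.999 FPKM (adjusted p = 4.79e-07), both adaptors known to target inducible nitric oxide synthase. With IL-4, 4 of the 15 rose and 1 fell, against 16% and 21% of all rows. Spsb4 rose the most, by 0.92 (adjusted p = 9.18e-05), and Rab40c was the 1 that fell, by 0.39 (adjusted p = 0.0264). In IL-4+LPS compared with LPS, 1 of the 15 was higher and 2 were lower, the latter near the share of all rows (15% and 15.8%). Wsb2 was 0.43 higher (adjusted p = 0.00813), and of the 2 lower Wsb1 was the more so at -0.58 (adjusted p = 2.28e-04).

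Among 10 other inhibitors of JAK and STAT signalling, 4 rose and 3 fell with LPS, against 16.9% and 57.7% of all rows. Usp18, an interferon-induced brake on the type I interferon receptor, went from 2.61 ± 1.08 FPKM in control and 7.29 ± 1.30 in IL-4 to 127 ± 28.2 under LPS alone and 203 ± 44.0 under IL-4+LPS, a rise of 5.17 with LPS (adjusted p = 3.91e-08) and 1.23 with IL-4 (adjusted p = 0.00332). Sh2b3, the adaptor LNK, fell by 1.58 with LPS (adjusted p = 4.11e-07). With IL-4, 2 rose and 4 fell, against 16% and 21% of all rows, and the largest fall was that of Pias3, an inhibitor of STAT3, by 0.92 (adjusted p = 3.73e-04). Between the LPS groups, the phosphatase gene Ptpn1 was at 169 ± 40.9 FPKM under LPS alone and 62.6 ± 12.5 under IL-4+LPS, a difference of -1.41 (adjusted p = 2.13e-04), and Ptpn2 was 0.42 higher in IL-4+LPS (adjusted p = 0.00702). In this list 1 gene was higher and 3 were lower with IL-4+LPS than with LPS alone, against 15% and 15.8% of all rows.

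The ligands and receptors upstream of the SOCS genes differed too. Of 23 JAK-coupled cytokine genes listed, 13 passed the filter. Of these, 9 rose and 1 fell with LPS, against 16.9% and 57.7% of all rows. In the comparison of the LPS groups 6 were higher and 1 lower with IL-4+LPS than with LPS alone, against 15% and 15.8% of all rows. The list median there was 0.62, against -0.03 for all rows. Il6, Il12a, Il12b, Il23a, Csf2, Csf3, Ifnb1 and Tslp averaged at most 0.16 FPKM in control and in IL-4. They passed the filter through the LPS groups alone, so a rise with LPS was built in and a fall could hardly be called. Il23a, Csf2 and Tslp averaged 0.555, 0.316 and 0.439 FPKM in LPS and 10.9, 1.54 and 3.34 FPKM in IL-4+LPS. The counts and medians of this list carry these limits. Il27 rose by 7.53 with LPS (adjusted p = 2.69e-07), and Osm, a gp130 ligand, fell by 1.15 (adjusted p = 4.94e-04). Il12a, a subunit of IL-12, was at 4.22 ± 1.84 FPKM under LPS alone and 41.4 ± 14.8 under IL-4+LPS, a difference of 3.02 (adjusted p = 3.70e-05). Ebi3, the partner subunit of IL-27, was at 216 ± 28.2 FPKM under LPS alone and 40.3 ± 9.87 under IL-4+LPS, a difference of -2.41 (adjusted p = 4.03e-06). With IL-4 alone 0 cytokine genes rose and 3 fell, against 16% and 21% of all rows, and Ebi3 fell by 2.03 (adjusted p = 1.29e-05). Of 24 receptor genes tested, 10 rose and 13 fell with LPS, the latter share being near the 57.7% of all rows. Il15ra rose by 3.37 (adjusted p = 1.50e-07), and Il6ra, the receptor chain for the SOCS3-restrained cytokine IL-6, fell by 2.82, from 24.9 ± 2.45 to 2.70 ± 0.623 FPKM (adjusted p = 1.47e-07). With IL-4, 6 receptor genes rose and 9 fell, against 16% and 21% of all rows, with Il11ra1 up by 1.57 (adjusted p = 4.97e-07) and Il10ra down, a difference of -1.25 (adjusted p = 1.73e-06). In IL-4+LPS compared with LPS, 6 receptor genes were higher and 6 lower, against 15% and 15.8% of all rows. Il11ra1 was 2.01 higher (adjusted p = 1.03e-07). Il4ra, the IL-4 receptor chain, was at 24.5 ± 0.986 FPKM in control, 16.4 ± 0.927 after IL-4, 180 ± 71.4 after LPS and 32.4 ± 11.7 after the pair of agents (SD, n = 3), a difference of -2.42 between the LPS groups (adjusted p = 2.65e-04). Of 5 growth factor and insulin receptor genes tested, 0 rose and 3 fell with LPS, which is near the share of all rows that fell. Insr fell by 1.32 with LPS (adjusted p = 2.13e-06) and was 0.41 higher with IL-4+LPS than with LPS alone (adjusted p = 0.0197). Igf1r fell by 0.61 with IL-4 (adjusted p = 0.0108), and Csf1r differed by -0.44 between the LPS groups (adjusted p = 0.0173).

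For the 4 members with a group mean of at least 10 FPKM, the rows most like each were taken by Pearson's r of log2(FPKM + 1) over the 12 samples, among 6324 rows with a group mean of at least 10 FPKM. These r values describe patterns over samples that share 4 treatments and carry no test. Among the rows closest to Socs1 were Slc15a3 (r = 0.992) and Msn (r = 0.982). Slc15a3 averaged 111, 250, 292 and 346 FPKM from control over IL-4 and LPS to IL-4+LPS, the same order as Socs1 over a much smaller range. Closest to Socs3 were Foxp4, Src and Adora2a, each with r = 0.998. Closest to Cish were Slc7a2 (r = 0.997), F10 (r = 0.994) and Ccl7 (r = 0.989). Slc7a2, an arginine transporter gene, averaged 0.467, 20.4, 18.5 and 213 FPKM in the 4 groups, near the Cish means of 0.709, 20.7, 15.0 and 146 FPKM. Closest to Socs6 were Acsl3 (r = 0.995), Ptcd2 (r = 0.994) and Galnt9 (r = 0.994). Between members, r was 0.92 for Socs1 with Cish, 0.736 for Socs1 with Socs3, 0.617 for Socs3 with Cish and -0.956 for Socs3 with Socs6.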

How the data were processed

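Per the study's methods and the submitters' processing notes, the authors prepared poly-A libraries with a TruSeq kit, sequenced paired reads, mapped them to mm10 with TopHat2 2.0.7 and deposited FPKM values from Cufflinks 2.0.2, 1 table per sample. The gene annotation is not given in the sources used here. Replicates were the samples numbered 1 to 3 in the labels. The study describes 3 animals and independent experiments, but the labels tie no sample to an animal, so p-values measure the spread between these samples. Fragment counts were not used here, so absolute depth was unknown. FPKM totals ran from 457583 to 495025.

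Rows with at least 1 FPKM in at least 1 sample were kept, and log2(FPKM + 1) was fitted over all 12 samples with limma 3.58.1 in R 4.3.3 (group means, eBayes with trend, two-sided, Benjamini-Hochberg over 11191 rows per comparison, threshold 0.05). A row low in some groups could pass this filter only through the groups where it was high. The fit was tested on simulated data. Named beyond the members were the largest called change in each direction of each list in 3 comparisons (LPS or IL-4 against control, IL-4+LPS against LPS), and the 3 rows most like each member. Some genes that this rule names are not reported here. The members and lists were chosen with earlier results of these data known. Positions were taken from the tables with 1 added to the start, gene models from GENCODE vM21 (GRCm38, the same assembly as mm10), and promoters from RefSeq. Printed promoter bases were limited to those outside exons of the gene, or to 30 bases. Alternatives were another pseudocount, filters, median and quantile scaling, a replicate block, only the compared groups, a Tukey test per gene, and leaving out samples.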

Additional observations from a re-analysis of the deposited data

Results flagged for a closer look

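The LPS response of 3 SOCS genes differed between cells with and without IL-4 by the interaction term of the limma fit, which compares the LPS difference of the 2 kinds of cells directly. For Socs1 the LPS response after IL-4 minus that without it was -3.206 on the log2(FPKM + 1) scale. The samples were at 30.6 to 33.3 FPKM before and 74.6 to 144 FPKM after LPS in IL-4-treated cells. In cells without IL-4 they were at 0.490 to 1.23 FPKM before and 35.7 to 71.2 FPKM after LPS. The size depended on the pseudocount, with -4.19 at a pseudocount of 0.1. The mean gain of Socs1 in FPKM was larger after IL-4, 82.7 against 57.7 FPKM, a difference that was not tested. For Socs2 the same log2 difference was -0.915, with every IL-4+LPS sample below every IL-4 sample and the LPS and control samples overlapping. For Socs5 it was -0.829, with every IL-4+LPS sample below every other sample. Groups of 3 samples were too small for a search for single outlying samples.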

How the results depend on the processing

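The 56 member results gave 1160 values under the alternatives, of which 1104 kept their direction and their side of the threshold, 12 lost the threshold and 21 gained it with the same direction, and 23 changed sign. All 23 belonged to results that had not passed in the fit of all 12 samples, and 21 of them did not pass with the new sign either. The 2 that did were Socs4 and Socs5 in LPS compared with control, which became 0.428 (adjusted p = 0.0281) and 0.292 (adjusted p = 0.0194) under quantile normalization. The cause was not tested. Leaving out replicates gave 3 to 5 members with a called interaction, against 3 in all samples, and the 5 came without replicate 1 of every group. Quantile normalization gave 2, since Socs2 went to -0.456 (adjusted p = 0.119). The difference of Socs1 between IL-4+LPS and LPS also lost its call with a pseudocount of 0.1 (adjusted p = 0.0503), with only the compared groups in the fit (adjusted p = 0.108) and by Tukey's test (adjusted p = 0.0693). Deviations of same-numbered samples correlated positively in all 18 pairs, mostly weakly (mean r 0.124, from 0.0024 to 0.386, over 0.1 in 11 pairs). Whether the numbers mark pairs was not settled by this. The labels do not say so, and the main fit used no block. With the replicate block, 6 members in place of 4 passed between IL-4+LPS and LPS, adding Socs6 at 0.344 (adjusted p = 0.0181) and Socs7 at -0.186 (adjusted p = 0.0374), 8 in place of 7 passed between IL-4+LPS and IL-4 (Socs4, adjusted p = 0.0168) and between IL-4+LPS and control (Socs4, adjusted p = 0.0439), and 6 in place of 5 between LPS and IL-4 (Socs5, adjusted p = 0.0415). It changed no other call. Absolute depth was unknown, which limits the reading of Socs2 at the control and LPS levels, 0.0444 to 0.248 FPKM.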
